A study of Mus musculus with 2 samples.

Results

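The cells described here are embryoid cells with abundant mRNA of vimentin (Vim), the intermediate filament protein of mesenchymal cells. By the rule given next, they held little or no mRNA of the fibrillar collagen genes Col1a1, Col1a2 and Col3a1. They were selected on unique molecular identifier (UMI) counts, each UMI standing for 1 captured mRNA molecule. A cell belonged to the group with at least 5 Vim UMIs, fewer than 5 UMIs in all of Col1a1, Col1a2, Col3a1 and Postn, and fewer than 5 in all of the pluripotency genes Nanog, Tdgf1, Sox2, Fgf4, Utf1 and Trh. The rule found 245 of the 5208 embryoid cells that passed the quality filter, a share of 4.7% (exact 95% interval 4.15 to 5.31). They are called Vim-high cells below. They were set beside 4321 comparison cells of the same library, which had 0 or 1 Vim UMI and at least 5 UMIs of Col4a1, a collagen chain of basement membranes that endoderm makes in quantity.

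The study profiled single cells of mouse embryoids and of mouse blastocysts, 1 library each. The embryoids joined 10000 embryonic stem (ES) cells, derived from Lifeact-RFPRuby mice, with 50000 to 80000 XTE cells, reprogrammed from Gata6-H2B:venus ES cells. The aggregates spent 48 h in aggregation wells and another 48 h in repellent plates. The XTE medium held CHIR99021 at 3 μM (an inhibitor of GSK3 that activates Wnt signalling), BMP4 at 50 ng/ml, Fgf4 at 25 ng/ml with heparin at 1 μg/ml, and Activin at 20 ng/ml. ES cells had been kept with Lif, PD0325901 and CHIR99021. The blastocysts were whole B6C3F1 embryos of embryonic day 4.5. All cells of a library were pooled before sequencing, so the labels do not give the number of embryoids or embryos behind a value, nor which embryoid cells came from ES and which from XTE cells.

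An epithelial cell that becomes mesenchymal lowers its tight junction and cadherin genes, takes up vimentin filaments and surrounds itself with fibronectin, tenascin and fibulins. Transcription factors of the Snail, Zeb and Twist families bind E-box letters in the promoters of epithelial genes and repress them. In the early mouse embryo such a change accompanies the exit of parietal endoderm from primitive endoderm, the exit of mesoderm from the primitive streak, and the migration of neural crest. Eomes, a T-box factor, serves both trophoblast stem cells and the primitive streak. Sox9 serves cartilage, neural crest and many progenitor cells.

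The embryoid file held 5546 cell barcodes and 28923930 UMIs, and the blastocyst file 1288 barcodes and 11047555 UMIs. The filter kept 5208 and 1019 cells. The Vim-high cells had a median of 4486 UMIs (1249 to 21019), 2230 genes and a mitochondrial share of 6.09%, and the comparison cells a median of 4970 UMIs, 2431 genes and 6.67%. The libraries shared 9 barcodes, and 0 of them were Vim-high cells. In the blastocyst library 10 cells reached 5 Vim UMIs and 1 cell met the whole rule. Levels below are UMIs summed over the cells of a group and scaled to 1000000 UMIs (CPM). With 1 library per group no test between groups was possible. All intervals are exact 95% intervals and cover counting error only, not the spread between embryoids. Log2 ratios have 1 CPM added to both levels and their intervals are of the count ratio without it, so a ratio to a very low level can lie outside its interval. Because Vim and Col4a1 chose the cells, every difference between Vim-high and comparison cells is a description.

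Of the 7 genes proposed as markers of the group, 6 were higher in it than in comparison cells, and for Vim the rule fixed this. The markers were proposed with earlier results of these data known, so the count is a description and no test of them. Over all 7769 genes with at least 20 CPM in 1 of the 2 profiles, 10.7% were at least 2-fold higher. Vim stood at 2981 CPM in Vim-high cells and 14.7 CPM in comparison cells. Single Vim-high cells held 5 to 76 Vim UMIs, with a median of 11 and quartiles of 7 and 18. Cdh11, a cadherin of mesenchymal cells, stood at 764.5 CPM against 0.826 CPM (log2 ratio 8.71, interval 9.22 to 10.57) and was seen in 199 of 245 cells. Fbln2, a fibulin of elastic fibres and basement membranes, stood at 611 against 7.06 CPM (6.25, interval 6.19 to 6.68). The exception was Slpi, a secreted inhibitor of leukocyte proteases. It had 2 UMIs in 1 of the 245 Vim-high cells. The comparison cells held 13 Slpi UMIs in 9 cells. Most Slpi UMIs lay in the fibrillar collagen cells, a group of 121 embryoid cells with 5 or more UMIs of the 4 collagen and periostin genes: 920 UMIs in 5 of these cells, of which 501 were in a single cell. Of these UMIs 840 were in 4 fibrillar collagen cells that clustered with most of the Vim-high cells, in a cluster where Slpi had the highest ratio to the other cells. Slpi is therefore no marker of the Vim-high cells, and the data go against that piece of the label. Vim, Cdh11 and Tnc were also high in the fibrillar collagen cells, at 2425, 1078 and 418.1 CPM, and the last 2 were higher there than in Vim-high cells. Fbln2, Sox9 and Eomes stood lower in the fibrillar collagen cells, at 328.9, 83.97 and 1.75 CPM.

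**Figure D1:**
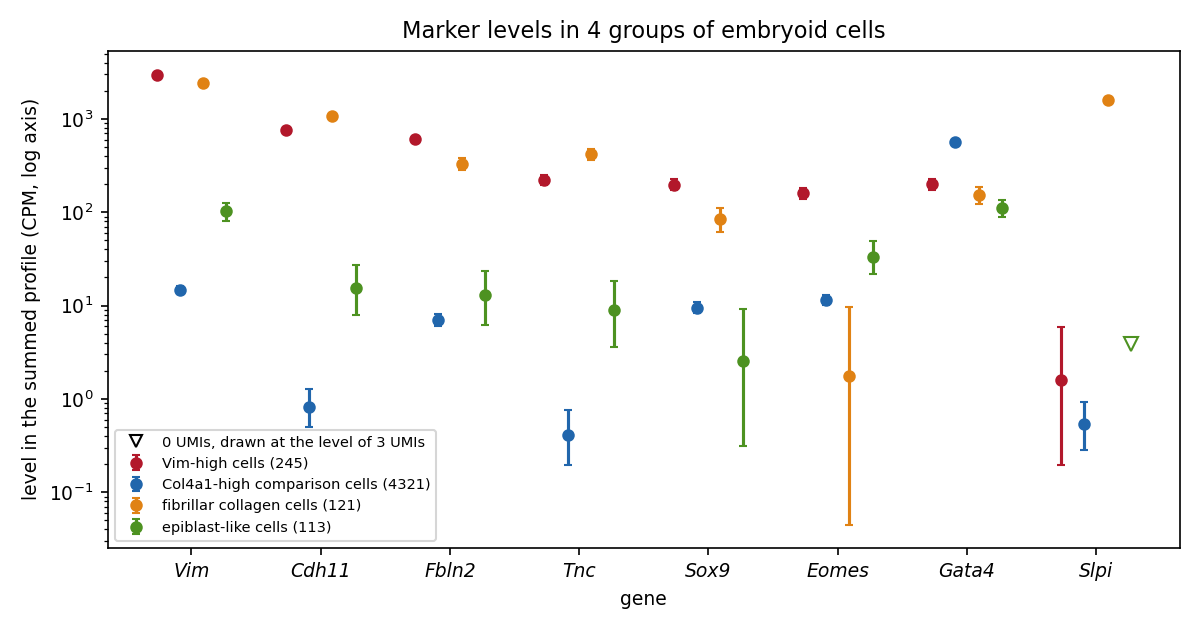
Levels of 8 genes (CPM, log axis) in the summed profiles of 245 Vim-high, 4321 comparison, 121 fibrillar collagen and 113 epiblast-like cells of the embryoid library; bars are exact 95% Poisson intervals, and an open triangle marks 0 UMIs. Eomes is high in the Vim-high cells and near 0 in the fibrillar collagen cells. Slpi is near 0 in the Vim-high cells, and its level in the fibrillar collagen cells comes from 5 of the 121 cells.

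The cells on both sides of the Vim threshold differed in more than Vim, but not clearly in every marker. The 40 cells just inside, with 5 or 6 Vim UMIs, had a median of 3491 UMIs, and the 68 cells just outside, with 3 or 4, a median of 4896.5. Cdh11 stood at 588.7 CPM inside and 226.1 CPM outside. Epcam, an epithelial adhesion molecule, stood at 137.9 CPM inside and 454.6 CPM outside. Col4a1 stood at 1252 and 2782 CPM. The cells just outside thus lay between the Vim-high and the comparison cells in these genes. Sox9 stood at 170 and 34.3 CPM and Fbln2 at 408 and 160 CPM. Tnc was level across the threshold, at 31.8 CPM inside and 34.3 CPM outside, against 220 CPM in all Vim-high cells. Eomes stood at 95.5 CPM inside (56.6 to 151) and 64 CPM outside (42.5 to 92.4), and these intervals overlapped. Among the Vim-high cells 106 had no Col4a1 UMI and 40 (16.3%) had 5 or more, 170 had no UMI of the 4 collagen and periostin genes, and 233 none of the 6 pluripotency genes. Col3a1, which the rule capped, stood at 89.51 CPM in Vim-high, 0.909 CPM in comparison and 1853 CPM in fibrillar collagen cells. Col5a1, a fibrillar collagen gene outside the rule, stood at 98.38, 9.295 and 383.1 CPM. Fibrillar collagen mRNA was thus low in the Vim-high cells but not absent.

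Most counted genes of matricellular and fibre proteins had higher mRNA levels in Vim-high than in comparison cells. A gene was counted where it reached 20 CPM in at least 1 of the compared profiles, and called higher or lower at a ratio of at least 2. Over all genes, 10.7% of 7769 were higher in Vim-high cells and 8.7% lower, and since the rule used this contrast the counts of the lists below are read as no more than a summary. Of 23 listed matricellular and fibre genes, 18 were counted, 15 of these were higher and 0 lower, with a median log2 ratio of 4.49 against 0.02 over all genes. Tnc, tenascin C, a matrix protein of migrating cells, stood at 220.1 CPM in Vim-high cells from 273 UMIs and at 0.413 CPM in comparison cells from 10 UMIs (7.29, interval 8.16 to 10.13), and with 5 CPM added in place of 1 its ratio was 5.38. Fbn2, a fibrillin of embryonic microfibrils, stood at 242.7 against 0.289 CPM (7.56). Vcan, versican, a large proteoglycan of loose matrix, stood at 289.5 against 2.11 CPM (6.55, interval 6.68 to 7.56). Fn1, fibronectin, stood at 412.9 against 53.99 CPM (2.91, interval 2.78 to 3.08). Col6a1, a chain of beaded-filament collagen, stood at 136.3 against 0.702 CPM (6.33). The 3 counted genes within 2-fold were Fbln1, Thbs1 and Ltbp1.

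Basement membrane genes went the other way, with 8 of 13 counted genes lower and 2 higher (median -1.72). Col4a1, which chose the comparison cells, stood at 805.6 CPM in Vim-high cells and 4590 CPM in comparison cells. Its partner chain Col4a2 stood at 354.8 against 1898 CPM (-2.42), the laminin chain Lama1 at 84.67 against 543.9 CPM (-2.67) and Lamc1 at 364.5 against 1247 CPM (-1.77). The 2 higher genes were Nid1, nidogen, which links laminin to collagen IV, at 294.3 against 37.72 CPM (2.93, interval 2.79 to 3.14), and Col18a1 at 141.1 against 4.75 CPM (4.63). Among extracellular proteases Mmp2, which cuts collagen IV, stood at 179.8 against 0.0826 CPM (7.38), the latter from 2 UMIs. Its inhibitor Timp2 stood at 176.6 against 19.21 CPM (3.14). Genes that fold and modify collagen were close to level: 9 of 11 counted genes were within 2-fold, and Serpinh1, the collagen chaperone, stood at 1233 against 2010 CPM (-0.70).

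Of 14 listed mesenchymal transcription factors, 9 were counted and 8 of these were higher, with a median log2 ratio of 4.73. Twist1 led in level, with 253.2 against 8.55 CPM (4.73, interval 4.63 to 5.15) and UMIs in 134 of 245 cells. Zeb1 stood at 74.19 against 0.991 CPM (5.24) and Zeb2 at 78.22 against 0.537 CPM (5.69). The paired-type homeobox factors of limb and face mesenchyme, Prrx1 and Prrx2, stood at 50.8 and 63.71 CPM in Vim-high cells, each from a level below 0.2 CPM in comparison cells. Snai2 stood at 20.16 against 0.124 CPM. Snai1, which parietal endoderm also uses, was the counted factor within 2-fold, at 26.61 against 17.23 CPM (0.60, interval 0.07 to 1.14).

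Epithelial junction and polarity genes were lower without exception among those counted: 14 of 18 listed genes were counted, 14 were lower, and the median log2 ratio was -2.20. Epcam stood at 95.16 CPM in Vim-high cells and 609.8 CPM in comparison cells (-2.67, interval -2.95 to -2.42). Cdh1, E-cadherin, stood at 49.19 against 264.1 CPM (-2.40), and the claudin Cldn6 at 206.4 against 1218 CPM (-2.55). Ocln, the tight junction protein occludin, stood at 14.52 against 132.6 CPM (-3.11, interval -3.95 to -2.53). Esrp1, the splicing factor of epithelial cells, stood at 12.9 against 66.84 CPM (-2.29). The simple-epithelium keratins Krt8 (25.0 against 128.8 CPM) and Krt18 (88.7 against 496.6 CPM) were lower as well, at -2.32 and -2.47, while the filament gene Nes stood at 104.8 against 3.55 CPM (4.54). In cadherins the 2 directions met: beside lower Cdh1, Cdh2 (N-cadherin) stood at 52.42 against 0.868 CPM (4.84).

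The promoter of Epcam is shown with its E-box letters CAGGTG and, as their reverse complement, CACCTG in capitals. The window is the 250 bases before the start of Epcam in the RefSeq table of build GRCm38.p6, chr17:87635729-87635978 on the plus strand, upstream of the gene, read 5′ to 3′.

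Epcam upstream window: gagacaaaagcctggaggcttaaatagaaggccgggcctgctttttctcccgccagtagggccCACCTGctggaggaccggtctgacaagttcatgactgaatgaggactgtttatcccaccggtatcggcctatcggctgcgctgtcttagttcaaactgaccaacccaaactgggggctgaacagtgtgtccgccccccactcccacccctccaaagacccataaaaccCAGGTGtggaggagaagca

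The letters occur at 2 places, beginning 187 and 19 bases before the start. Of the 32851 promoter windows of this length in the table, 17.2% held the letters on either strand. The epithelial list had 18 windows for 13 of its genes, and 11 windows, of 10 genes, held them. A match describes the sequence only. Binding was not measured, and no factor was tied to these genes.

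Primitive endoderm factors were lower in the Vim-high cells. All 10 listed factors were counted and 9 were lower (median -2.29). Sox17 stood at 66.13 CPM against 378.9 CPM in comparison cells (-2.50, interval -2.85 to -2.21). Pdgfra, the receptor that marks primitive endoderm, stood at 52.42 against 326.3 CPM (-2.62), and Foxa2 at 19.35 against 115.8 CPM (-2.52). Gata4 and Gata6, the GATA factors at the head of the endoderm program, were lower by less, with Gata4 at 199.2 against 562.7 CPM (-1.49, interval -1.69 to -1.32) and Gata6 at 75.8 against 165.4 CPM (-1.12). The Gata4 ratio was -0.96 among cells of 5000 to 15000 UMIs and -1.93 without the Vim-high cells that held 5 or more Col4a1 UMIs. Of the visceral endoderm list 13 of 14 counted genes were lower (median -2.33), among them the endocytic receptor genes Cubn at 12.9 against 123.3 CPM and Lrp2 at 34.68 against 298.8 CPM. The parietal endoderm list was split, with 6 of 10 counted genes lower and 2 higher (median -1.47). Sparc, a major parietal matrix protein, stood at 1685 against 5752 CPM (-1.77), and the receptor gene Pth1r at 38.71 against 294.6 CPM (-2.90), while Plat, a plasminogen activator, stood at 155.6 against 76.55 CPM (1.01).

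Cell by cell, the Vim-high cells held few endoderm markers. With every cell thinned to 3000 UMIs, which left out the 46 shallower Vim-high cells, a median of 1 of 10 primitive endoderm markers was seen per Vim-high cell and 5 per comparison cell. One of the 10 is Col4a1, which chose the comparison cells. In 116 of 199 thinned Vim-high cells (58.3%) 0 or 1 marker was seen, and in 12 (6.03%) 5 or more. In the epiblast-like cells, 113 embryoid cells with 5 or more pluripotency UMIs, the median was 0, with 9 of 107 thinned cells (8.41%) at 5 or more. Of these 9 epiblast-like cells 7 were among the 16 that also met the rule of the comparison cells, and without the 16 the share was 2.2% (2 of 91, interval 0.267 to 7.71).

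**Figure D2:**
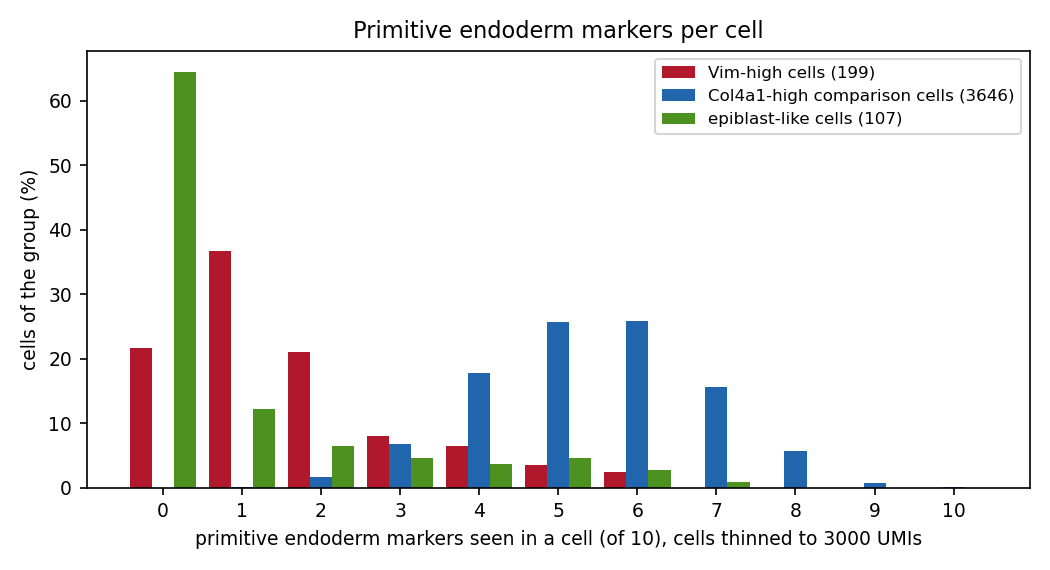
Number of primitive endoderm markers (of 10) with a UMI in single cells thinned to 3000 UMIs, as a percentage of the cells of each group, for 199 Vim-high, 3646 comparison and 107 epiblast-like cells. The Vim-high cells peak at 1 marker and the comparison cells at 5 and 6.

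The regulators Eomes, Sox9 and Gata4 and the matrix gene Tnc were each seen in only a portion of the Vim-high cells. Eomes had UMIs in 59 of 245 cells (24.1%): 22 cells with 1 UMI, 22 with 2 to 4 and 15 with 5 or more, up to 15. Sox9 had UMIs in 107 cells (43.7%), 11 of them with 5 or more, and Tnc in 95 cells (38.8%), 16 of them with 5 or more. Gata4 had UMIs in 111 cells (45.3%), of which 57 held 1 UMI. In none of the 4 genes did the cells with a UMI make up the whole group, and 37 cells (15.1%) showed none of them at their own depth.

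At 3000 UMIs per cell, Eomes was seen in 21.6% of Vim-high cells (16.1 to 28) and 2.99% of comparison cells. It was seen in 0 of 90 fibrillar collagen cells of the same library, which allows a share of cells with a UMI of up to 3.33% (3 cells of the total; the exact interval reaches 4.02%), and in 5.61% of epiblast-like cells. Unthinned, the shares were 24.1%, 5.67%, 0.826% and 12.4%, at median depths of 4486, 4970, 4145 and 6416 UMIs. Sox9 was seen in 32.2% of thinned Vim-high cells (25.7 to 39.1), 17.8% of fibrillar collagen cells, 2.39% of comparison cells and 0.935% of epiblast-like cells. Tnc was seen in 30.7% of Vim-high, 38.9% of fibrillar collagen, 0.137% of comparison and 0.935% of epiblast-like cells. Unthinned, Sox9 was in 43.7%, 19.8%, 4.12% and 1.77% and Tnc in 38.8%, 34.7%, 0.231% and 1.77% of the same groups. The shares of Sox9 and Tnc in Vim-high cells therefore lay far above those in comparison and epiblast-like cells. Between Vim-high and fibrillar collagen cells the Tnc shares had overlapping intervals at both depths. These were 24.3 to 37.6 and 28.8 to 49.7 at 3000 UMIs, and 32.6 to 45.2 and 26.3 to 43.9 unthinned.

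Gata4 was seen most often in comparison cells. It was present in 36.2% of thinned Vim-high cells (29.5 to 43.3), 31.1% of fibrillar collagen cells and 78.4% of comparison cells, against 16.8% of epiblast-like cells (10.3 to 25.3), a type that should lack it. The unthinned shares were 45.3%, 33.1%, 89.9% and 26.5%. The epiblast-like cells include 16 that also met the rule of the comparison cells, and without them their thinned share was 8.79% (3.87 to 16.6). At 1500 UMIs per cell Gata4 was seen in 16.2% of Vim-high cells (11.8 to 21.5), 10.7% of epiblast-like cells (5.66 to 18), or 4.17% (1.15 to 10.3) without those 16, and 56.4% of comparison cells. The share in Vim-high cells lay below that in comparison cells at both depths. Its interval was apart from that of all epiblast-like cells at 3000 UMIs and overlapped it at 1500 UMIs. In the blastocyst library, Gata4 was seen in 81.2% of thinned primitive endoderm cells and 2.23% of epiblast cells (95.1% and 6.78% unthinned, medians 8801.5 and 9907.5 UMIs), all taken there by UMI rules on marker genes.

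**Figure D3:**
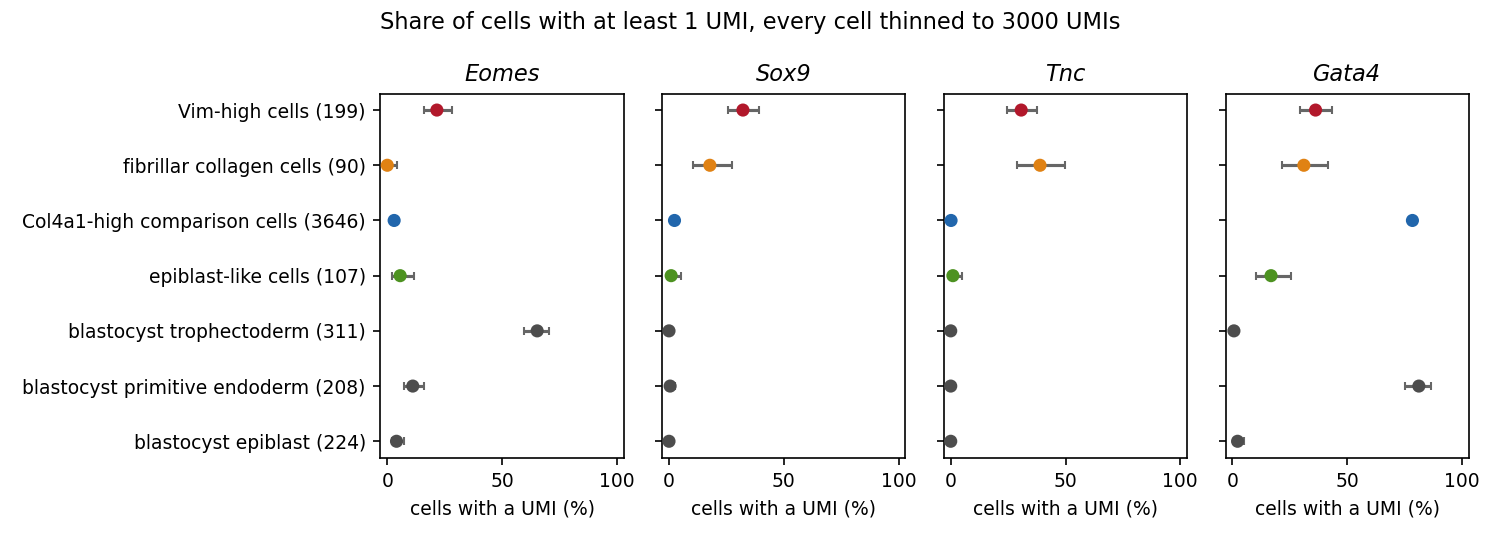
Percentage of cells with at least 1 UMI of Eomes, Sox9, Tnc and Gata4 after thinning every cell to 3000 UMIs, in 4 embryoid and 3 blastocyst groups (cells in brackets); bars are exact 95% binomial intervals. Vim-high cells reach 21.6% for Eomes, where blastocyst trophectoderm reaches 65.3%, and only they and the fibrillar collagen cells exceed 10% for Sox9 or Tnc among the groups drawn.

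In single Vim-high cells, Eomes and Gata4 UMIs were often seen together. Gata4 was seen in 38 of 59 cells with Eomes (64.4%, 50.9 to 76.4) and 73 of 186 without (39.2%, 32.2 to 46.7). At 3000 UMIs the shares were 48.8% (33.3 to 64.5) and 32.7% (25.4 to 40.7), and the intervals overlapped. Cells with Gata4 were deeper, with a median of 5694 UMIs against 3801.5, and the part of depth in the unthinned difference was not tested beyond this thinning. For Eomes and Sox9 the unthinned shares were close, with Sox9 in 45.8% of cells with Eomes and 43.0% of cells without. For Eomes and Tnc they were 32.2% and 40.9%.

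The trophoblast factors Cdx2, Elf5 and Tfap2c were at 0 or near it in the Vim-high cells. Eomes in these cells stood at 159.7 CPM (comparison 11.48 CPM, log2 ratio 3.69, interval 3.53 to 4.07), and in blastocyst trophectoderm at 470.6 CPM. In blastocyst primitive endoderm Eomes stood at 48.6 CPM, with UMIs in 11.1% of cells thinned to 3000 UMIs and 29.9% unthinned. Blastocyst epiblast had 20.2 CPM, with shares of 4.02% and 18.6%. Cdx2, which drives trophectoderm, stood at 4.84 CPM in Vim-high cells and 308.3 CPM in blastocyst trophectoderm. Elf5, a trophoblast stem cell factor, had 0 UMIs in the 245 Vim-high cells, and its trophectoderm level was 213.1 CPM. Tfap2c stood at 6.45 against 204.5 CPM and Gata3 at 28.22 against 732.5 CPM. Cdx2, Elf5 and Gata3 had a part in choosing the trophectoderm cells of the blastocyst, and the libraries differ, so library and tissue cannot be told apart in these values. Against comparison cells the trophoblast list was even, with 4 of 9 counted genes higher (Eomes, Gata3, Id2, Bmp4) and 4 lower (Sox21, Tead4, Klf5, Fgfr2).

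Primitive streak and mesoderm genes were present at low levels. Of 8 counted genes 6 were higher and 1, Cyp26a1, lower (median 4.02). T, brachyury, had UMIs in 14 of 245 Vim-high cells, at 50.8 CPM, and 0 UMIs in the 4321 comparison cells, so it was at least 409.9-fold higher against a floor of 3 UMIs in the comparison profile. Mixl1 stood at 21.77 CPM in 13 Vim-high cells, from 1 UMI among the comparison cells. Hand2 stood at 37.09 against 0.413 CPM (4.75). Mesp1 had 0 UMIs in the Vim-high cells. The SOX9 related list had all 8 of its counted genes higher (median 3.79), of which Sox9 is itself a proposed marker of the group. Sox9 stood at 198.4 against 9.5 CPM (4.25, interval 4.12 to 4.65), with Nfib at 184.7 against 4.09 CPM (5.19), Sox6 at 26.61 against 1.12 CPM (3.71) and the minor fibrillar collagen Col11a1 at 29.03 against 1.07 CPM (3.86). Acan, aggrecan of cartilage, had 0 UMIs.

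**Figure D4:**
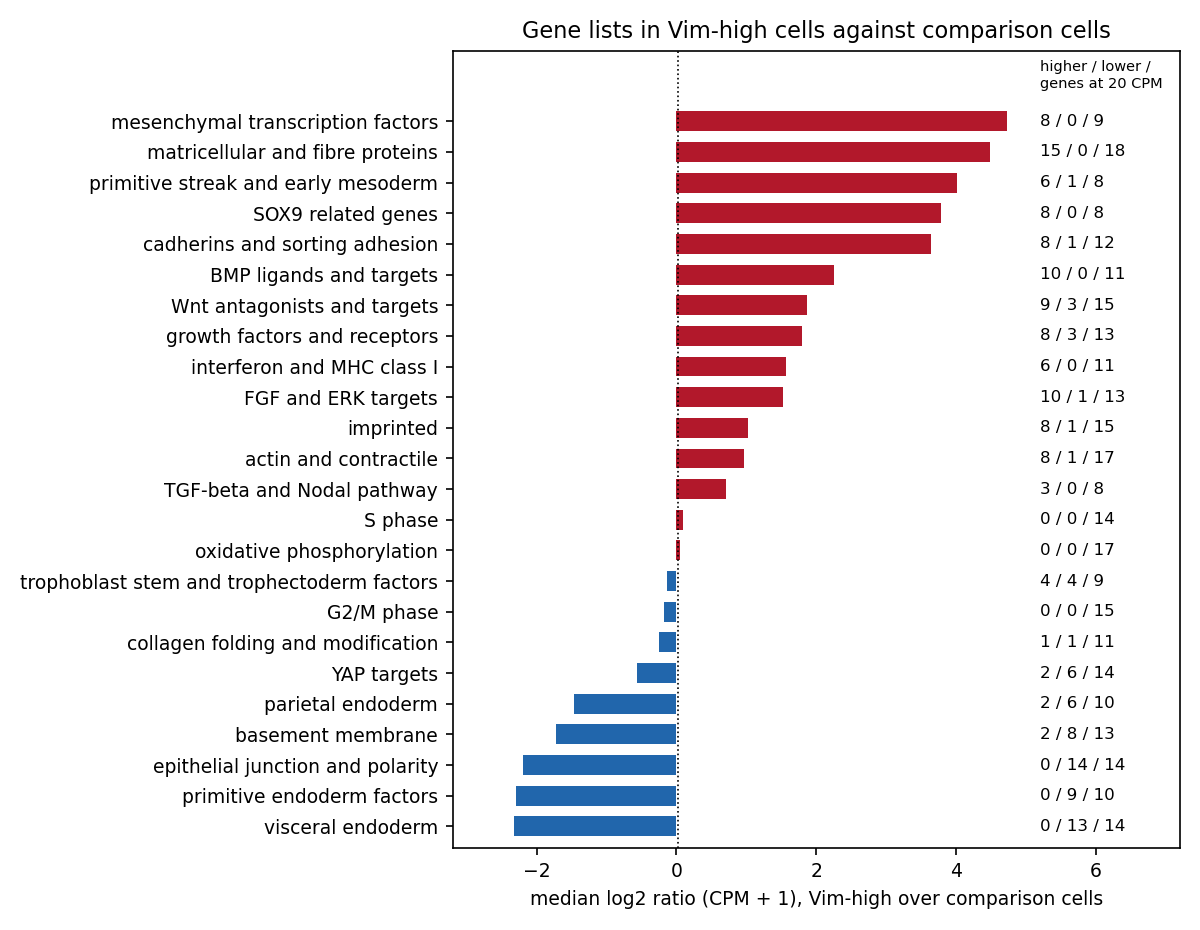
Median log2 ratio (CPM + 1) of Vim-high over comparison cells for 24 gene lists, with the numbers of genes at least 2-fold higher, at least 2-fold lower, and counted at 20 CPM printed on the right; the dotted line is the median of all 7769 genes. Mesenchymal and matrix lists lie at the top and epithelial and endoderm lists at the bottom, and cell cycle and respiratory chain lists lie near 0.

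Genes of the BMP pathway were higher, 10 of 11 counted (median 2.25). The ligand genes Bmp2 and Bmp4 stood at 111.3 against 29.78 CPM (1.87) and 62.09 against 4.21 CPM. Among targets, Id3 stood at 516.9 against 154.9 CPM (1.73), Msx2 at 175.0 against 36.02 CPM (2.25) and the decoy receptor Bambi at 124.2 against 12.76 CPM (3.19). Of the Wnt list 9 of 15 counted genes were higher and 3 lower (median 1.87). The feedback inhibitor Nkd1 stood at 311.3 against 4.42 CPM (5.85, interval 5.83 to 6.46), Lef1, a nuclear partner of beta-catenin, at 106.4 against 1.61 CPM (5.36), and Axin2 at 74.19 against 19.58 CPM (1.87). The lower genes were Frzb, Sfrp5 and Wnt11, the last at 39.51 against 276.8 CPM (-2.78).

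Receptors and feedback genes of FGF signalling followed, with 10 of 13 counted genes higher and 1 lower (median 1.53). Fgfr1 stood at 116.1 against 2.81 CPM (4.94), and Fgfr2 at 10.48 against 37.96 CPM (-1.76), so the 2 receptors had opposite directions. Dusp6, a phosphatase induced by ERK, stood at 196.8 against 34.74 CPM (2.47), and the cyclin Ccnd1 at 191.1 against 12.39 CPM (3.84). In the TGF-beta and Nodal list 3 of 8 counted genes were higher and 0 lower (median 0.71), led by the ligand Tgfb2 at 121.0 against 2.56 CPM (5.10). Binding proteins of insulin-like growth factors were higher, with Igfbp4 at 569.3 against 27.31 CPM (4.33), Igfbp2 at 358.9 against 17.85 CPM (4.26) and Igfbp5 at 362.1 against 103.7 CPM (1.79). The growth factor Igf2 itself stood at 4371 against 2137 CPM (1.03, interval 0.99 to 1.07).

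Of 15 counted imprinted genes, Igf2 among them, 8 were higher and 1 lower (median 1.03). Plagl1, a zinc finger factor, stood at 632.2 against 21.03 CPM (4.85), Dlk1 at 202.4 against 14.33 CPM (3.73) and Grb10 at 545.1 against 110.3 CPM (2.30). H19, the noncoding neighbour of Igf2, was the lower gene, at 143.5 against 716.0 CPM (-2.31, interval -2.54 to -2.11), and 93 of its 178 UMIs in Vim-high cells came from 1 cell. Proliferation genes were level: 0 of 14 S phase and 0 of 15 G2/M genes were 2-fold apart, with Mki67 at 182.2 against 154.5 CPM and Top2a at 529.0 against 506.0 CPM. The same held for 17 respiratory chain genes (median 0.05). Among inhibitors of cyclin-dependent kinases, Cdkn1a stood at 971.7 against 450.6 CPM (1.11) and Cdkn1c at 225.8 against 72.25 CPM (1.63). Of interferon and MHC class I genes 6 of 11 counted were higher, with the membrane protein Ifitm3 at 724.2 against 11.98 CPM (5.80) and Ifitm1 at 262.9 against 16.32 CPM (3.93), while B2m stood at 1018 against 581.0 CPM (0.81).

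Among genes of at least 50 CPM and seen in at least 20% of the cells of the higher group, the highest ratios to comparison cells after Cdh11 were those of Pmp22, Slc38a4, Fbn2, Mmp2, Tnc, Chst2, 6330403K07Rik, Asb4, Itm2a, Stc1 and Serpinf1. Pmp22, a membrane protein best known from myelin, stood at 412.1 against 0.496 CPM (8.11), and Slc38a4, an imprinted amino acid transporter, at 391.1 against 0.95 CPM (7.65). Serpinf1, a secreted serpin, stood at 96.77 CPM from 120 UMIs, with 1 UMI in all comparison cells. The lowest ratios were those of L1td1, Cdcp1, Cubn, Ocln, Hopx, Lrp2, Rhox6, Dppa5a, Spint1, Rbm47, Pth1r and Grb7. L1td1, an RNA-binding protein of pluripotent cells, stood at 7.26 against 91.17 CPM (-3.48), and Spint1, an inhibitor of epithelial membrane proteases, at 23.39 against 187.3 CPM (-2.95).

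The 121 fibrillar collagen cells, which the rule set apart by the 4 collagen and periostin genes, expressed many of the same mesenchymal genes. This contrast was also fixed in part by the rule and is a description. Of 7786 counted genes 2.58% were at least 2-fold higher in Vim-high cells and 4.61% lower. Among genes of at least 50 CPM and seen in at least 20% of the cells of the higher group, Eomes had the highest ratio, at 159.7 against 1.75 CPM from 1 UMI (log2 ratio 5.87, interval 4.02 to 11.82). Within these limits it was followed by Vstm2b, an immunoglobulin-domain membrane protein, at 144.3 against 12.25 CPM (3.46, interval 2.49 to 4.89), Lmo2, a cofactor of blood and vessel development, at 80.64 against 10.5 CPM (2.83), Fut9, a fucosyltransferase, at 79.03 against 10.5 CPM (2.80), and Car2, a carbonic anhydrase, at 225.0 against 52.48 CPM (2.08). Sox9 was higher too, at 198.4 against 83.97 CPM.

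By the same limits, the lowest ratio to fibrillar collagen cells was that of Hand1, a factor of extraembryonic mesoderm, at 8.06 against 222.2 CPM (-4.62, interval -5.88 to -3.86). Gli1, a target of hedgehog signalling, stood at 5.65 against 59.48 CPM (-3.19), Frem1 at 6.45 against 64.73 CPM (-3.14), Col6a3 at 23.39 against 139.9 CPM (-2.53) and Snai1 at 26.61 against 131.2 CPM (-2.26). Of 10 counted mesenchymal factors 7 were lower in Vim-high cells and 1 higher. Meox1 was the higher one, at 26.61 against 7 CPM, and Twist1 stood at 253.2 against 647.3 CPM. Of the matricellular list 12 of 20 counted genes were lower and 0 higher. Epcam (95.16 against 120.7 CPM) and Fn1 (412.9 against 419.8 CPM) were close between these groups, and Vcan (289.5 against 575.5 CPM) was not. Most counted genes of the signalling and imprinted lists were within 2-fold. Of the BMP list 0 of 12 counted genes were higher in Vim-high cells and 1 lower, and of the imprinted list 0 of 15 and 3. The Wnt list had 1 of 15 higher and 4 lower, and the FGF list 1 of 14 and 2. Nkd1 (311.3 against 337.6 CPM) and Ifitm3 (724.2 against 740 CPM) were close.

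Vim-high cells with and without an Eomes UMI differed in the levels of several genes, while Fbln2 was level at 609 and 612 CPM. The split used a readout of the same cells and the genes named in this and the next 2 paragraphs were picked after their values were seen, so these are descriptions with no test. Cells with and without Eomes had median depths of 4789 and 4229 UMIs. Higher with Eomes were Pdlim3, a muscle-type actin linker, at 185.7 against 18.65 CPM (log2 ratio 3.25, interval 2.52 to 4.19), the gap junction gene Gjb2 at 152.2 against 16.45 CPM (3.13) and Vstm2b at 392.8 against 54.85 CPM (2.82, interval 2.36 to 3.34). Vstm2b had UMIs in 37 of 59 cells with Eomes and 33 of 186 without. Fst, follistatin, an Activin antagonist, stood at 496.3 against 153.6 CPM (1.69), the growth factor gene Fgf10 at 115.7 against 30.71 CPM (1.88) and the homeobox factor Otx2 at 137.0 against 68.01 CPM (1.00). Mixl1 had UMIs in 10 of 59 cells with Eomes and 3 of 186 without, and Meox1 in 13 and 12. Gata3 had UMIs in 2 cells with Eomes and 25 without. The cells with Eomes thus held few UMIs of this trophectoderm factor. In blastocyst trophectoderm, where Eomes was high, Vstm2b, Pdlim3 and Otx2 had 0 UMIs. Gjb2, Fst and Fgf10 are not given there, and library and tissue cannot be told apart in such values. Which cell type the cells with Eomes belong to was not tested.

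Among the genes lower in the cells with Eomes, Col6a1 stood at 9.13 against 182.1 CPM (-4.18, interval -6.61 to -2.75), and Col6a2 had 0 UMIs with Eomes and 69.11 CPM without, at least 7.57-fold lower against a floor of 3 UMIs. Col3a1, 1 of the 4 genes the rule capped, had 0 UMIs in the 59 cells with Eomes and UMIs in 53 of the 186 without. Mmp2 stood at 33.49 against 232.6 CPM (-2.76). Igf2 stood at 1644 against 5353 CPM (-1.70, interval -1.83 to -1.57), Dlk1 at 6.09 against 273.1 CPM (-5.27), Plagl1 at 161.4 against 801.9 CPM (-2.31), and H19 had 0 UMIs against 195.3 CPM, the latter from 16 cells and with 93 of 178 UMIs from 1 of them. Cdh11 (852.5 against 732.8 CPM) and Vim (2664 against 3096 CPM) were nearly level. Within the largest cluster of Vim-high cells alone the directions were the same, with Igf2 at 1813 against 5538 CPM, Col6a1 at 10.13 against 220.4 CPM and Vstm2b at 425.4 against 68.44 CPM.

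**Figure D5:**
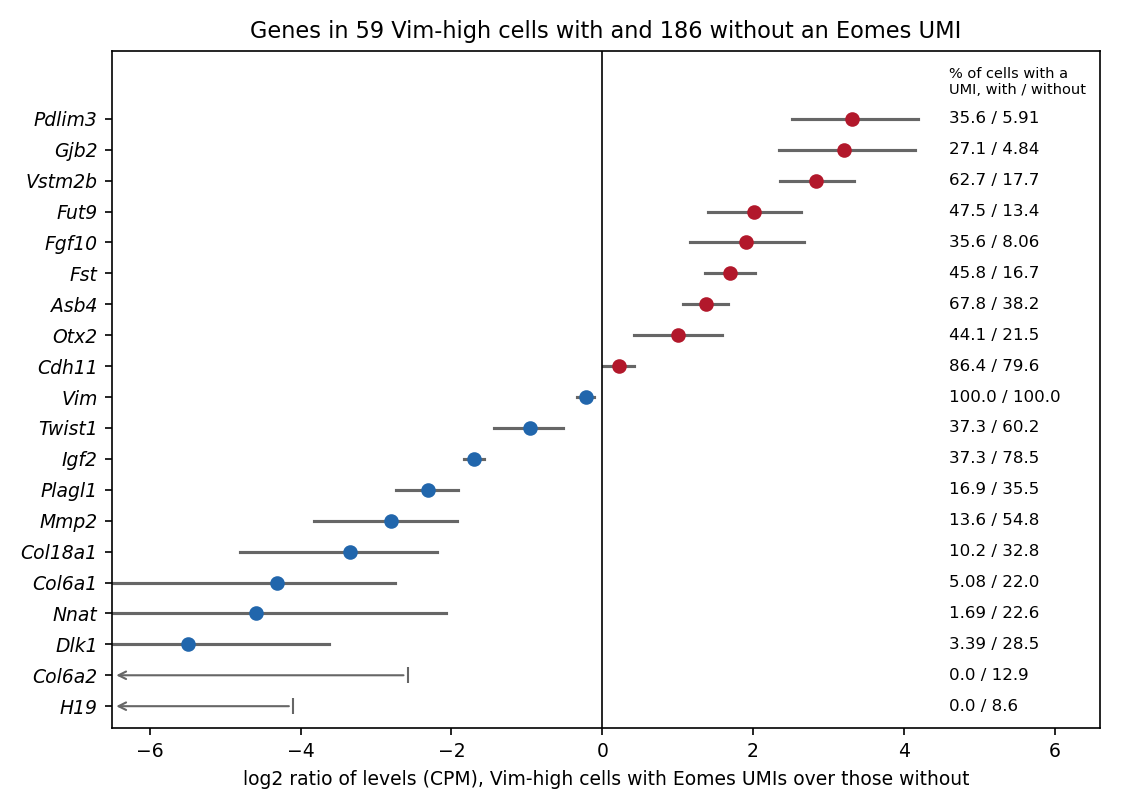
Log2 ratio of levels (CPM, nothing added) of 20 genes in 59 Vim-high cells with an Eomes UMI over 186 without; lines are exact 95% intervals, cut at the left edge, arrows mark genes with 0 UMIs in the cells with Eomes, and the percentages of cells with a UMI stand on the right. Genes from Pdlim3 to Otx2 lie to the right and genes from Twist1 to H19 to the left, while Cdh11 and Vim lie close to 0.

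Cells with Tnc leaned the other way from cells with Eomes in collagen VI. Col6a1 stood at 280.1 CPM in the 95 cells with Tnc and 47.04 CPM in the 150 without (2.55, interval 2.03 to 3.15), and Igfbp7 at 214.8 against 40.51 CPM (2.38). Anxa1, an annexin, stood at 162.2 against 15.68 CPM (3.29), the smooth muscle actin gene Acta2 at 122.1 against 18.3 CPM (2.67), Nid1 at 528.6 against 149.0 CPM (1.82) and Plagl1 at 1177 against 294.0 CPM (2.00). Median depths were close, at 4442 and 4525 UMIs. Cells with Gata4 held more endoderm and epithelial mRNA than cells without: Col4a1 stood at 1125 against 382.4 CPM (1.55), Epcam at 151.4 against 20.62 CPM (2.82), Pdgfra at 84.92 against 9.37 CPM (3.05) and Ttr at 100.5 against 9.37 CPM (3.29). Prrx1 (16.98 against 95.59 CPM) and Mmp2 (93.41 against 294.3 CPM) were lower with Gata4. The cells with Gata4 were the deeper ones, as given above, and the part of depth or of barcodes holding more than 1 cell was not tested. The split covered all Vim-high cells, with 7 that clustered with comparison cells and had higher Epcam and Col4a1 levels than the whole group. These 7 cells held 23 of the 247 Gata4 UMIs.

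Clustering of all embryoid cells without the genes of the rule placed 209 of the 245 Vim-high cells (85.3%) in 1 cluster of 311 cells, which also held 48 fibrillar collagen cells and 33 cells with 2 to 4 Vim UMIs. Another 21 lay in a cluster of 120 cells with 71 fibrillar collagen cells. In these 21 cells T stood at 323.3 CPM, with UMIs in 6 of them, against 29.22 CPM in the Vim-high cells of the largest cluster, and Eomes had 0 UMIs. A further 7 lay in clusters of comparison cells. They had a median of 12009 UMIs, with Vim at 598.5 CPM, Col4a1 at 2203 CPM, Epcam at 432.9 CPM and Cdh11 at 0 UMIs, and 0 UMIs of Tnc. Among them Fbln2 stood at 89.13 CPM.

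The remaining 8 Vim-high cells made up a cluster of their own with endothelial genes. Cdh5, the cadherin of endothelium, had 4 to 10 UMIs in each of the 8 cells and UMIs in 2 of the other 237 Vim-high cells. Pecam1 had UMIs in 6 of the 8 cells, Tie1 in 7 and Tek in 2, so all 4 markers of the class were detected and the cluster is called endothelium-like. Kdr, the VEGF receptor, had UMIs in 7 and the tight junction gene Cldn5 in 6. These cells held 23 to 76 Vim UMIs each, above the median of 11, and Eomes, Sox9, Tnc and Fbln2 had 0 UMIs in them. Without them the ratios to comparison cells were 3.72 for Eomes, 4.29 for Sox9 and 7.33 for Tnc, against 3.69, 4.25 and 7.29 with them. Defining markers of other cell types were low in the Vim-high cells as a whole. The 2 of 6 blood or leukocyte markers that have any UMI in either library summed to 8.06 CPM. Their sum was 3.51 CPM in comparison and 3.5 CPM in fibrillar collagen cells. The 4 muscle markers summed to 8.06 CPM, with Actc1 and Des at 0, against 0.62 CPM in comparison and 0 CPM in fibrillar collagen cells. The 4 of 5 neural markers with any UMI summed to 21.77 CPM, against 1.32 CPM in comparison and 24.49 CPM in fibrillar collagen cells. Of these Tubb3 stood at 19.35 CPM, and Sox1 and Pax6 were at 0. In the neural and neural crest list 1 gene was counted, Tfap2b. It stood at 29.84 CPM from 37 UMIs, with 0 UMIs in comparison and fibrillar collagen cells.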

How the data were processed

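Single-cell whole-transcriptome libraries of 1 embryoid and 1 blastocyst sample were used. The deposited files hold whole-number UMI counts per gene symbol and cell barcode, not normalized. Per the submitters' processing notes, build mm10 was used, with featureCounts 1.6.4 of Subread, the STAR aligner 2.7.1a, the program UMI-tools 1.0.1 and also bcl2fastq 2.19.1.403. For their settings, the annotation and the calling of barcodes: not given in the sources used here.

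Barcodes with at least 1000 UMIs, 500 genes and a mitochondrial share of 1 to 25% were kept. Below 20 CPM in both profiles a gene was not counted. No doublet caller was run; leaving out the deepest 5% of barcodes was an alternative. Clusters came from Leiden clustering (scanpy 1.11.5, leidenalg 0.10.2) with 2000 variable genes, 30 components, 20 neighbours, resolution 1 and seed 1, without rule, ribosomal and mitochondrial genes. Intervals were computed with scipy 1.17.1. The count ratios were checked on simulated data.

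The cells, their proposed markers, the 45 gene lists and the alternatives were chosen with earlier results of these data known. The genes named were the markers of the group, list members by level (up to 6 per list) or 2-fold apart, and the 12 highest and 12 lowest ratios per comparison. Genes of the splits within the group, the additional marker genes of the endothelium-like cluster and those set beside the Vim threshold were picked after their values were seen. 0 sample columns were left unused.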

Additional observations from a re-analysis of the deposited data

How the results depend on the processing

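The share of Vim-high cells, the counts of genes 2-fold apart from comparison cells, the ratios of Eomes, Sox9, Tnc and Gata4 and their thinned shares were recomputed under up to 17 alternatives, 99 values in all, with 2 background shares of epiblast-like cells among them. The list counts, the contrast with fibrillar collagen cells, the splits and the clusters were not. Of these values 74 moved by no more than 0.5 of the width of their interval (for a count of genes, less than 1.5 times), 25 by more (for a share of thinned cells, beyond its interval), and 0 changed direction. The share of Vim-high cells was 2.88% with at least 10 Vim UMIs, 6.01% with at least 3, 3.26% with 0 fibrillar collagen UMIs and 3.82% at 5000 to 15000 UMIs. Without a minimum level 2432 genes were higher and 1560 lower, against 830 and 676. The log2 ratio of Eomes was 4.16 with 0 fibrillar collagen UMIs, 3.40 at 5000 to 15000 UMIs, 3.32 with 5 CPM added, and 4.09 without cells of 5 or more Col4a1 UMIs. Under the same settings other than the collagen one, Sox9 had 3.96, 3.81 and 4.55, and 3.90 with at least 3 Vim UMIs. Tnc had 5.38 with 5 CPM added. Gata4 had -1.29 with at least 3 Vim UMIs, -0.96 at 5000 to 15000 UMIs, -1.88 with each cell weighted equally, and -1.93 without cells of 5 or more Col4a1 UMIs. At 1500 UMIs per cell the shares were 14.1% for Eomes, 22.8% for Sox9, 23.7% for Tnc and 16.2% for Gata4, since fewer UMIs per cell show fewer genes. For the other values the cause was not tested. The settings on Col4a1, on clusters, on the comparison cells and on the epiblast-like cells were added after seeing the data. Scaling by the median ratio shifted all ratios by 0.02. No paired analysis was possible because each group has 1 library, and no value has a replicate. A cell with 0 UMIs of a gene may still express it.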
